A study of Mus musculus with 209 samples.

Results

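The GADD45 family has 3 genes in the mouse, Gadd45a, Gadd45b and Gadd45g, and all 3 were found by symbol among the 55011 gene symbols counted in 209 RNA sequencing libraries. Each library held about 1000 sorted immune cells of C57BL/6 mice aged 5 to 8 weeks. In the screen (183 libraries), an intravenous dose of 5 µg of TNFa, IL1b or IL6, dissolved in 120 µL of PBS, was given 2 h before 14 cell types were sorted. Control mice got 120 µL of plain PBS. Cell types carry Immunological Genome Project names. The peritoneum gave macrophages (MFpc) and mast cells (MC). The spleen gave follicular (B.fo) and marginal zone (MZB) B cells, 4 kinds of T cell, namely CD4 (T.4), CD8 (T.8), regulatory (Treg) and gamma-delta (Tgd), NK cells (NK), plasmacytoid (pDC) and CD8+ (DC.8+) dendritic cells, neutrophils (GN), Ly6C+ monocytes (Mo.6C+) and macrophages of the red pulp (MFrp). A cytokine group had 3 libraries, except for 2 in T.8 with TNFa, in DC.8+ and MC with IL1b and in NK, B.fo and MC with IL6. The pDC had no IL1b libraries, and each PBS group had 4 or 5. For MFpc and Mo.6C+ there was also a time course, with 2 libraries at each of 2, 4, 8 and 24 h after TNFa and 2 taken 24 h after PBS. A further experiment compared Mo.6C+ after 1 ng of LPS, the endotoxin of Gram-negative bacteria, with PBS controls (3 libraries each), and the labels state no time.

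GADD45 proteins are small acidic stress-response proteins without known enzymatic activity. They bind the kinase MTK1 (Map3k4) and so activate p38 and JNK, they bind PCNA, the CDK inhibitor p21 and the cyclin B1 complex in growth arrest, and they have been linked to repair-based DNA demethylation. Gadd45a is a classical p53 target. Gadd45b is induced by NF-kB downstream of TNF receptors and restrains JNK through MKK7 (Map2k7), and Gadd45g is a cytokine-induced gene that in CD4 T cells promotes p38 activity and interferon gamma.

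In the GRCm38 annotation (GENCODE vM21) Gadd45a lies on the minus strand at chr6:67035096-67037457, Gadd45b on the plus strand at chr10:80930073-80932204 and Gadd45g on the plus strand at chr13:51846678-51848468. Each has transcripts of up to 4 exons, and the merged exons span 1764, 1589 and 1173 bases. Gadd45a overlaps the antisense non-coding gene E230016M11Rik, so its counts are uncertain because the strand setting of the counting is not given in the sources used here. The stretches before the transcription starts are shown because Gadd45b and Gadd45g passed the tests below in many cell types and Gadd45a in few. They are RefSeq sequences of build GRCm38.p6, 5′ to 3′ on the strand of each gene, from 250 bases before the RefSeq start to that start or, where the GENCODE gene begins earlier, to the base before it (200, 232 and 250 bases). Capitals mark 3 motifs. The E-box was searched as CACGTG. The box named for its letters CCAAT was searched on both strands. The TATA box was searched as TATAAA on the plus strand.
Gadd45a, minus strand, chr6:67037458-67037657: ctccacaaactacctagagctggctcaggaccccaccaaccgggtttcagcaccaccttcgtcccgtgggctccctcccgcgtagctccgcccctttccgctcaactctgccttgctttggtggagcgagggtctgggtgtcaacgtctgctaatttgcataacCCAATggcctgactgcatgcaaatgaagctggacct
Gadd45b, plus strand, chr10:80929841-80930072: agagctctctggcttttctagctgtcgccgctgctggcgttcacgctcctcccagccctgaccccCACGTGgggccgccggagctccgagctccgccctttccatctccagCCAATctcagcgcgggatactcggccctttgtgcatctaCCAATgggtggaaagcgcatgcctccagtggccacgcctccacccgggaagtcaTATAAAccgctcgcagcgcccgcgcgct
Gadd45g, plus strand, chr13:51846425-51846674: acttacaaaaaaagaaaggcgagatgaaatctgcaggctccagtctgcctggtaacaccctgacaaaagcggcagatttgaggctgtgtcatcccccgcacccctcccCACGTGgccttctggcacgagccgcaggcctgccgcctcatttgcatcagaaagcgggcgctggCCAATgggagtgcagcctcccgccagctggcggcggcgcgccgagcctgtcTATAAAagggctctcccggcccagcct
Gadd45b and Gadd45g shared 1 CACGTG match each, at -185 and at -142, and 1 TATAAA match each, at -46 and at -27. Gadd45a had neither. CCAAT stood at -86 in Gadd45a, at -139 and -100 in Gadd45b, and at -78 in Gadd45g. These motifs were chosen after the sequences were read, and the shares of 32851 promoter windows of 250 bases with a match were 6.02% for the E-box, 7.59% for the TATA box and 33.8% for the CCAAT box. The NF-kB consensus (7.25% of windows), the STAT motif TTCNNNGAA (7.02%) and the AP-1 motif TGANTCA (6.75%), searched on both strands, had no match in the 3 windows. No motif overlapped another.

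Library totals ran from 1094567 to 9291121 counts, lowest in MC, and levels are given in CPM, the count over the library total in 1e+06, scaled by TMM within a cell type. In every library of the screen the marker list of the labelled type stood above that list in the other types, except for the CD4 T cell list. That list reached 8.74 (mean log2 CPM) in Treg and was as low as 8.67 in T.4. The time-course and LPS libraries were not part of this comparison. Some libraries carried markers of other cells. IL6 library 3 of MC had a mean log2 CPM of 1.64 over the 6 T cell markers, against -1.26 in the other IL6 library and -0.99 to -0.50 with PBS. Over the 6 B cell markers, IL1b library 1 stood at 3.40 in NK and 4.77 in Tgd, against -0.26 to 0.66 and 1.96 to 2.72 with PBS. In MFrp, erythroid markers averaged 11.04 to 12.01 in PBS libraries 1 to 3, against 6.33 to 9.86 in TNFa libraries and 6.77 and 7.92 in the other PBS libraries. NK cell markers in MFrp averaged 5.7 to 5.9 with TNFa and 2.89 to 7.24 with PBS. T cell markers there averaged 1.19 to 3.98 with TNFa and 1.4 to 4.96 with PBS. The part of these NK and T cell markers in the MFrp levels and changes was not tested. In DC.8+, NK cell markers reached 5.25 in TNFa library 2, 4.45 in TNFa library 3 and 5.26 in PBS library 5, against 2.24 to 2.91 in the other PBS libraries. Nothing in the labels ties libraries to separate mice, so p-values measure the spread between libraries, which may be technical. In bulk libraries a change in the make-up of the sorted cells and a change in RNA per cell cannot be told apart.

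Without an injected cytokine, neutrophils had the highest mean level of each of the 3 genes with TMM scaling, for Gadd45g not with library totals. Per kb of exon, with CPM scaled over all PBS libraries, Gadd45b averaged 74.1 ± 9.75 in GN, 35.4 ± 14.6 in DC.8+, 23.1 ± 3.03 in pDC, 15.4 ± 4.04 in Mo.6C+ and 15.0 ± 1.56 in MZB (SD; n = 5, 4, 5, 5 and 4). It stood at 10.3 ± 3.39 in Treg, 9.92 ± 3.35 in T.8, 9.44 ± 2.93 in B.fo, 5.79 ± 2.60 in Tgd and 3.92 ± 1.82 in NK. The lowest Gadd45b levels were those of MFrp at 2.62 ± 0.832, T.4 at 1.90 ± 1.49, MC at 0.727 ± 0.714 and MFpc at 0.217 ± 0.417. Both macrophage types thus stood near the bottom of the order for the gene that responded most in them. Gadd45g averaged 55 ± 10.1 CPM per kb in GN, 45.5 ± 14.1 in B.fo, 23.5 ± 15.7 in Treg, 21.5 ± 3.50 in NK, 17.7 ± 6.35 in Tgd, 14.5 ± 2.48 in DC.8+ and 10.1 ± 3.39 in T.8. It was 8.58 ± 13.8 in MFpc, 5.70 ± 4.65 in MFrp, 3.59 ± 1.2 in Mo.6C+, 3.40 ± 1.39 in MZB, 3.26 ± 2.34 in T.4, 2.46 ± 2.42 in pDC and 0.344 ± 0.406 in MC. Gadd45a averaged 20.1 ± 7.01 CPM per kb in GN and at most 3.04 ± 2.7, the mean of MFrp, in the other 13 types. MFpc (2.86 ± 1.94), MZB (1.35 ± 0.432) and B.fo (1.27 ± 0.822) followed, then Tgd (0.849 ± 0.5), NK (0.571 ± 0.433) and Treg (0.563 ± 0.285). Lower levels were 0.361 ± 0.269 in pDC, 0.319 ± 0.191 in Mo.6C+, 0.304 ± 0.375 in T.8, 0.299 ± 0.364 in T.4, 0.269 ± 0.412 in DC.8+ and 0.135 ± 0.156 in MC. The Gadd45a mean of MFrp includes PBS libraries 1 to 3, which were rich in erythroid markers. Without them its log2 fold change in MFrp turned from -1.27 to 0.83 with IL1b and from -0.85 to 1.26 with TNFa. None of these changes passed, and the part of the erythroid markers in the MFrp level was not tested. Between neighbours in these 3 orders, none of 39 two-sided exact permutation tests on log2 CPM passed after Benjamini-Hochberg adjustment (smallest adjusted p = 0.206, smallest unadjusted p = 0.00794, the least that 5 against 5 libraries allow). A single pair at that least value could not pass after adjustment over 39 pairs, so these tests cannot show that neighbours have equal levels. For Gadd45a the ranges of GN and MFrp did not overlap, at 18.2 to 48.3 and 1.10 to 12.3 CPM, and for Gadd45b those of GN and DC.8+ did not, at 90.9 to 128 and 38.6 to 90.5 CPM. With library totals in place of TMM factors, GN stayed first for Gadd45a and Gadd45b, but for Gadd45g B.fo stood at 50.6 ± 15.5 and GN at 33.4 ± 6.85 CPM per kb. On that scaling the Gadd45b ranges of GN and DC.8+ overlapped, at 52.6 to 81.6 and 35.7 to 88.7 CPM. 

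**Figure D1:**
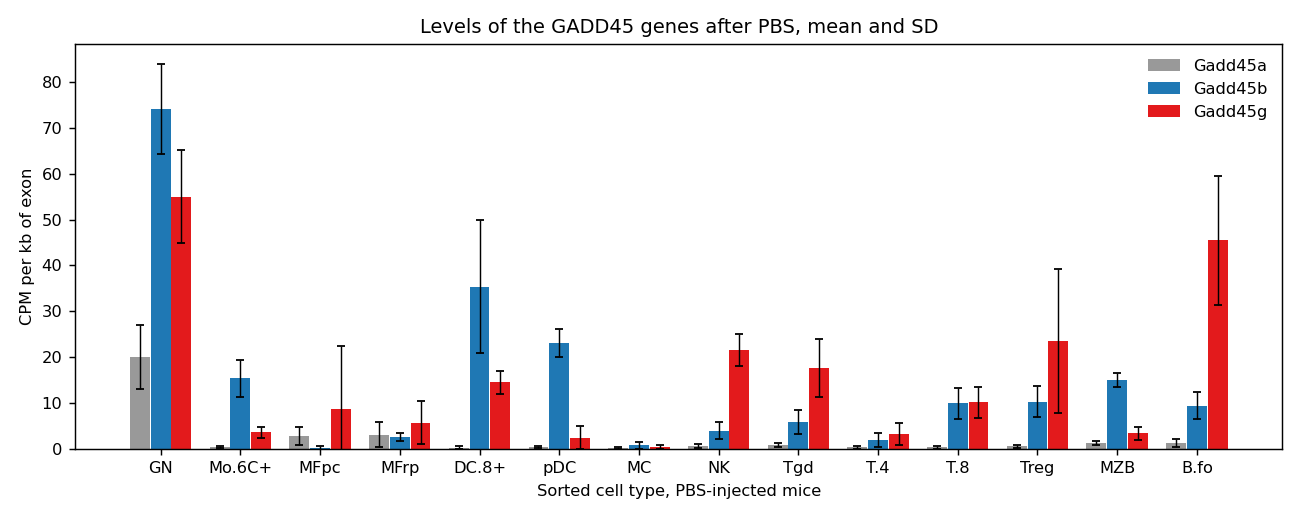
Bars give the mean and whiskers the SD of CPM per kb of merged exon for Gadd45a, Gadd45b and Gadd45g in the PBS libraries of each cell type (n = 4 or 5, TMM scaling over all PBS libraries). GN has the highest mean for all 3 genes on this scaling (with library totals B.fo is first for Gadd45g), and Gadd45b is lowest in MFpc.

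TNFa raised Gadd45b in 10 of the 14 cell types and lowered it in none, with log2 fold changes from 0.75 to 6.78. The largest were those of the macrophages. In MFrp Gadd45b stood at 413, 453 and 408 CPM with TNFa, against 3.28, 2.29, 3.32, 5.44 and 5.09 CPM with PBS (log2 fold change 6.78 ± 0.31 SE, adjusted p = 6.92e-10). In MFpc it stood at 32.1, 15.5 and 29.5 CPM with TNFa and at 0, 0.145, 1.06, 0 and 0 CPM with PBS (6.72 ± 0.57, adjusted p = 4.5e-09). The MFpc controls held 8 Gadd45b counts in all, and the size of that fold rests on them: without PBS library 3 it was 8.93 with TNFa, 7.30 with IL1b and 4.89 with IL6. In neither macrophage type did a TNFa library come near the controls, and leaving out the 3 MFrp controls rich in erythroid markers gave a change of 6.29 there. In Mo.6C+ the values were 169, 193 and 162 CPM with TNFa and 20.4, 26.7, 14.8, 15.5 and 23.5 CPM with PBS (3.11 ± 0.32, adjusted p = 7.43e-07). In DC.8+ they were 429, 302 and 307 CPM with TNFa and 42.8, 33.7, 79.5 and 41.4 CPM with PBS (2.81 ± 0.29, adjusted p = 1.4e-05). In GN, where the level with PBS was already high, they were 229, 311 and 326 CPM with TNFa and 43.5, 57.4, 65.7, 66.5 and 65.2 CPM with PBS (2.28 ± 0.26, adjusted p = 2.01e-06). All TNFa libraries lay above all PBS libraries in these 5 myeloid types. Among lymphoid types Gadd45b rose in Treg (2.67 ± 0.27, 76.6 to 167 CPM with TNFa and 13.8 to 26.6 with PBS), NK (2.28 ± 0.37), T.4 (2.25 ± 0.51) and Tgd (1.86 ± 0.37), and in pDC the change was 0.75 ± 0.17. The T.4 call rested on TNFa library 3 (24.0 CPM): without it the adjusted p was 0.0718. In T.8 both TNFa libraries, at 41.7 and 112 CPM, lay above the PBS libraries at 11.8 to 24.9, but the change did not pass with edgeR (2.07 ± 0.49, adjusted p = 0.101). It passed with DESeq2 (2.08, adjusted p = 0.00254) and without the filter on low counts (2.10, adjusted p = 1.22e-08). With 1 library left out the T.8 change ran from 1.19 to 2.63, and the value of 2.63 rested on 1 TNFa library. B.fo (0.12 ± 0.38), MZB (0.33 ± 0.23) and MC (1.58 ± 0.88) did not pass either. Over all genes tested, TNFa changed 53.4% in MFpc, 48.7% in Mo.6C+, 37.5% in GN, 21.6% in MFrp, 15.6% in NK, 15.5% in DC.8+ and 14.4% in pDC. In the other types it changed 6.56% in T.4, 5.1% in Treg, 3.99% in MC, 3.51% in B.fo, 3.42% in Tgd, 2.74% in MZB and 0.481% in T.8.

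**Figure D2:**
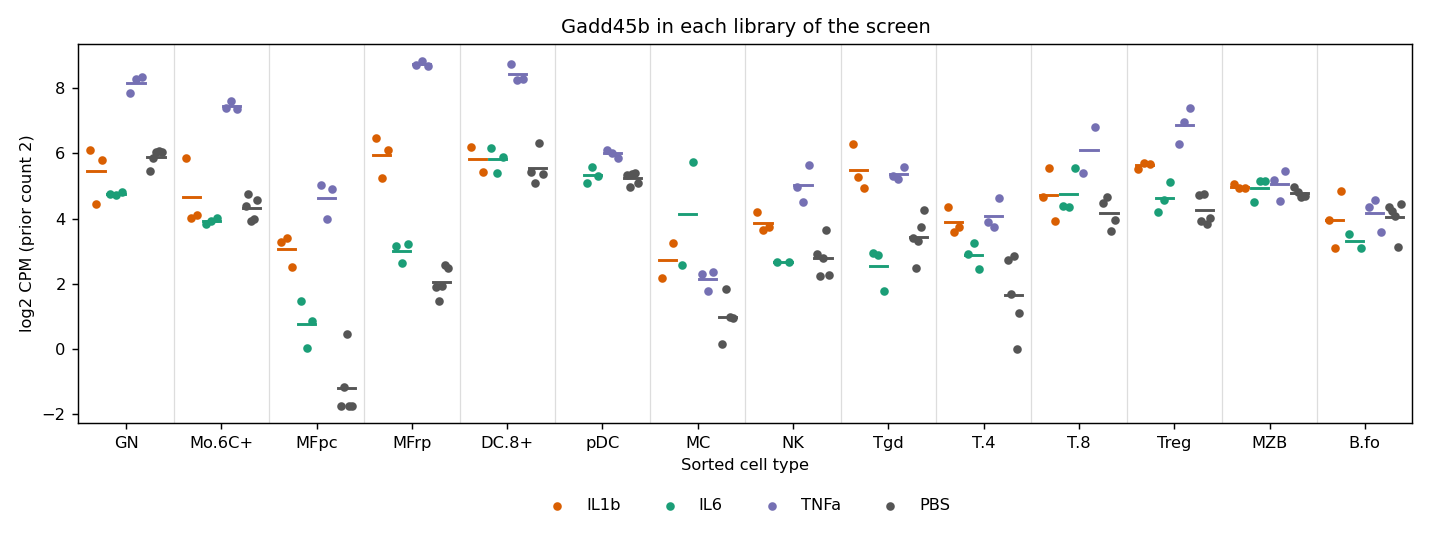
Points are the log2 CPM (prior count 2) of Gadd45b in each library of the screen by cell type, with IL1b, IL6 and TNFa left of PBS in each, and short lines are group means. TNFa libraries of MFrp (408 to 453 CPM) stand far above the PBS libraries (2.29 to 5.44 CPM), while MZB and B.fo groups overlap.

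IL1b raised Gadd45b in 5 of 13 cell types and lowered it in none. In MFpc the libraries stood at 9.38, 10.2 and 5.48 CPM with IL1b, against at most 1.06 CPM with PBS (5.10 ± 0.62, adjusted p = 1.4e-06). In MFrp they stood at 88.0, 37.4 and 68.8 CPM with IL1b, against at most 5.44 CPM with PBS (4.07 ± 0.29, adjusted p = 2.02e-07). As with TNFa, the macrophages gave the largest changes and no library overlapped. Gadd45b also rose in Tgd (2.11 ± 0.36), T.4 (2.05 ± 0.51) and Treg (1.34 ± 0.28). In Tgd the B cell markers of IL1b library 1 went with the highest Gadd45b value, 77.5 CPM, against 38.3 and 30.3 CPM in the other IL1b libraries; without it the change was 1.59 and still passed. In T.4 the adjusted p was 0.0971 without IL1b library 1 and 0.0502 in a fit of the 2 groups alone. In GN, which gave a clear Gadd45b response to TNFa, the values were 68.6, 21.5 and 55.5 CPM with IL1b and 43.5 to 66.5 CPM with PBS, and the groups overlapped (-0.29 ± 0.27, adjusted p = 0.494). In Mo.6C+ IL1b library 1 stood at 57.8 CPM, apart from 15.9 and 16.8 CPM in the other IL1b libraries and 14.8 to 26.7 CPM with PBS (0.56 ± 0.33, adjusted p = 0.206). IL1b changed 37.3% of all genes tested in MFpc, 37.0% in Mo.6C+, 22.4% in GN, 10.9% in MFrp, 5.96% in T.4, 4.82% in DC.8+ and 3.96% in MZB. The share was 3.39% in NK, 3.28% in Treg, 2.19% in MC, 2.14% in Tgd, 1.09% in B.fo and 0.581% in T.8.

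IL6 raised Gadd45b in 2 of 14 cell types and lowered it in 1. In GN the values were 26.6, 25.9 and 27.8 CPM with IL6 and 43.5, 57.4, 65.7, 66.5 and 65.2 CPM with PBS, without overlap (-1.16 ± 0.28, adjusted p = 0.016). The fold changed little without any 1 library (-1.25 to -1.12), but without any 1 of the 3 IL6 libraries it no longer passed (adjusted p = 0.0526 to 0.0898). The share of counts from mitochondrial genes was 0.0882% to 0.113% in the GN libraries with IL6, against 0.0251% to 0.0438% with PBS, and its part in the result was not tested. In MFpc Gadd45b stood at 2.46, 0.723 and 1.5 CPM with IL6 and at 0 to 1.06 CPM with PBS (2.69 ± 0.76, adjusted p = 0.0194). The groups overlapped, and without IL6 library 1 the adjusted p was 0.134. In MC the 2 IL6 libraries stood at 4.81 and 51.8 CPM, against 0 to 2.46 CPM with PBS (4.68 ± 0.81, adjusted p = 0.00433). The higher value belongs to the library with T cell markers. Without that library 1 IL6 library was left, and the change was 2.11 and did not pass. The part of those markers in the result was not tested. Of all genes tested, IL6 changed 15.3% in MFpc, 9.51% in GN, 5.87% in Mo.6C+, 2.8% in T.4 and 0.494% in Treg. It changed 0.425% in MC, 0.394% in B.fo, 0.387% in MFrp, 0.218% in MZB, 0.154% in pDC, 0.151% in T.8, 0.107% in DC.8+ and 0.0147% in Tgd. In NK edgeR called 0 genes (0.0%), with 980 genes at an unadjusted p under 0.05 and 32 called by DESeq2.

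IL1b raised Gadd45g in 8 of 13 cell types, and the largest changes that passed were in alpha-beta T cells. In MC, with 2 IL1b libraries, the change was 3.43 and did not pass. In T.4 Gadd45g stood at 264, 217 and 211 CPM with IL1b, against 8.79, 5.95, 1.07, 4.96 and 1.66 CPM with PBS (5.63 ± 0.35, adjusted p = 8.54e-10). In T.8 it stood at 241, 186 and 218 CPM with IL1b and at 18.9, 7.65, 15.7 and 13.2 CPM with PBS (3.96 ± 0.27, adjusted p = 1.05e-05). In Treg the libraries held 353, 257 and 307 CPM with IL1b and 34.0, 67.8, 31, 13.5 and 16.6 CPM with PBS (3.21 ± 0.36, adjusted p = 1.05e-05). In these 3 T cell types no IL1b library overlapped with its controls. In GN Gadd45g stood at 259, 241 and 255 CPM with IL1b and at 37.0, 25.4, 27.9, 32.0 and 40.6 CPM with PBS (2.95 ± 0.21, adjusted p = 3.12e-08). The 6 monocyte markers averaged 5.96, 5.60 and 5.70 (mean log2 CPM) in those GN libraries with IL1b, against 3.72 to 5.09 with PBS, and their part in the result was not tested. Gadd45g also rose in Tgd (2.57 ± 0.25, 120 to 186 CPM with IL1b and 15.0 to 36.4 with PBS), DC.8+ (2.24 ± 0.31), Mo.6C+ (1.86 ± 0.44) and NK (1.12 ± 0.22). In Mo.6C+ the 6 neutrophil markers averaged 2.46, 2.32 and 2.16 (mean log2 CPM) with IL1b, against 0.67 to 2.12 with PBS, and Gadd45g is higher in GN; the part of those markers was not tested. In NK the library with B cell markers was the highest, at 89.7 CPM, against 45.5 and 47.9 CPM in the other IL1b libraries and 22.6 to 34.7 CPM with PBS. Without it the NK change was 0.74 and no longer passed (adjusted p = 0.0723), and in Tgd, without its library with B cell markers, it was 2.38 and still passed. In B.fo the IL1b libraries, at 104, 121 and 90.3 CPM, lay above the PBS libraries at 44.6 to 84.7 CPM, but edgeR gave an adjusted p of 0.0772 (0.80 ± 0.21), where DESeq2 gave 0.013.

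**Figure D3:**
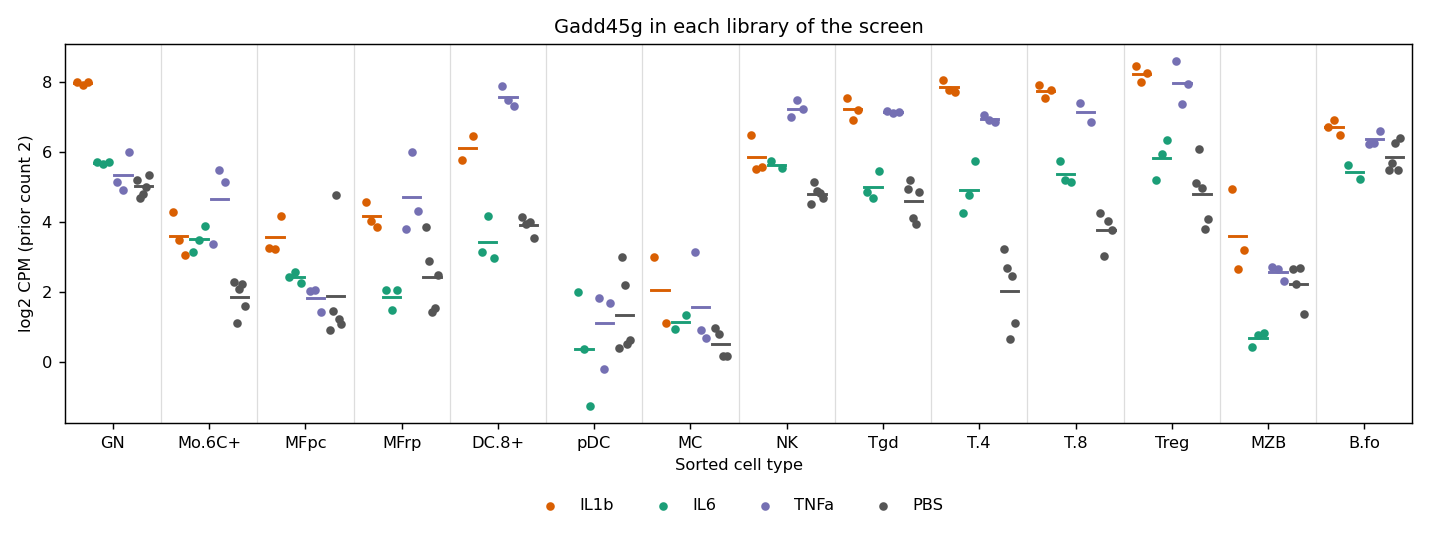
Points are the log2 CPM (prior count 2) of Gadd45g in each library of the screen by cell type, with IL1b, IL6 and TNFa left of PBS in each, and short lines are group means. In T.4 the IL1b libraries (211 to 264 CPM) and the TNFa libraries (115 to 132 CPM) stand above the PBS libraries (1.07 to 8.79 CPM), and in MFpc 1 PBS library stands alone at 27.3 CPM.

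In MFpc 1 control decided what could be said of Gadd45g. PBS library 3 stood at 27.3 CPM, against 1.57, 2.46, 2.04 and 1.82 CPM in the other PBS libraries, and was also the highest MFpc control for Gadd45b (1.06 CPM) and Gadd45a (7.59 CPM). Its T cell markers averaged -0.63 with 1 of 6 at 0, against -1.26 to -0.90 with 4 to 6 at 0 in the other PBS libraries (mean log2 CPM), and its B cell markers (0.02) lay within their range of -0.68 to 2.07; the part of these in its values was not tested. With all libraries, Gadd45g in MFpc stood at 9.38, 9.13 and 17.8 CPM with IL1b (0.80 ± 0.66, adjusted p = 0.366), 5.04, 5.66 and 4.51 CPM with IL6 (-0.45 ± 0.71, adjusted p = 0.739) and 3.78, 3.87 and 2.41 CPM with TNFa (-1.04 ± 0.77, adjusted p = 0.263). Without PBS library 3 the changes were 2.60 with IL1b (adjusted p = 2.06e-06), 1.35 with IL6 (adjusted p = 0.0081) and 0.76 with TNFa (adjusted p = 0.0773).

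TNFa raised Gadd45g in 8 of 14 cell types, 7 of them among the 8 that IL1b raised. Both contrasts use the same PBS libraries, so their counts are not independent. In T.4 Gadd45g stood at 132, 120 and 115 CPM with TNFa, against at most 8.79 CPM with PBS (4.72 ± 0.35, adjusted p = 1.14e-08). In DC.8+ it stood at 237, 181 and 161 CPM with TNFa and at 17.5, 15.1, 15.8 and 11.3 CPM with PBS (3.69 ± 0.30, adjusted p = 1.4e-06). Neither type had a TNFa library near its controls. Without 5 of the DC.8+ libraries that carried erythroid or NK cell markers, the DC.8+ changes were 3.59 for Gadd45g and 3.25 for Gadd45b. TNFa library 3 stayed in that fit, with NK cell markers at 4.45 (mean log2 CPM), against 2.35 and 2.91 in PBS libraries 1 and 2. The part of its markers in the result was not tested. Further Gadd45g changes with TNFa were 3.37 ± 0.28 in T.8, 3.11 ± 0.43 in Mo.6C+, 3.02 ± 0.36 in Treg, 2.48 ± 0.25 in Tgd, 2.44 ± 0.22 in NK and 2.41 ± 0.59 in MFrp. In MFrp TNFa library 2 stood at 64.4 CPM, against 13.5 and 19.7 CPM in the other TNFa libraries and 2.21 to 13.9 CPM with PBS, and without it the change was 1.42 and did not pass (adjusted p = 0.132). In GN, where IL1b raised the gene, the TNFa libraries held 35.1, 29.7 and 64.5 CPM, overlapping the controls (0.41 ± 0.22, adjusted p = 0.166). IL6 raised Gadd45g in 3 cell types by the edgeR test. In T.4 the values were 18.6, 27.0 and 53.1 CPM with IL6 and 1.07 to 8.79 CPM with PBS (2.82 ± 0.37, adjusted p = 8.61e-05). In T.8 they were 53.4, 36.6 and 35.2 CPM with IL6 and 7.65 to 18.9 CPM with PBS (1.6 ± 0.26, adjusted p = 0.0395), and in Mo.6C+ 8.46, 10.9 and 14.6 CPM with IL6 and 1.84 to 4.57 CPM with PBS (1.71 ± 0.43, adjusted p = 0.028). The IL6 groups did not overlap with controls in these 3 types. The calls in T.8 and Mo.6C+ were fragile: without 1 of 6 of the 7 T.8 libraries, or 1 of 5 of the 8 Mo.6C+ libraries, they did not pass (adjusted p up to 0.176 and 0.155), and in a fit of the 2 groups alone the T.8 adjusted p was 0.0668. In GN the IL6 libraries, at 51.8, 50.5 and 52.3 CPM, lay above the PBS libraries at 25.4 to 40.6 CPM without passing (0.66 ± 0.22, adjusted p = 0.0634), where DESeq2 (adjusted p = 0.0388), a fit of the 2 groups alone (0.0418) and a fit without the filter (0.0419) passed.

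Gadd45a changed in few comparisons, and in NK, Treg, pDC, T.4 and T.8 it was too low to be tested. With TNFa it rose in 2 of the 9 types tested. In GN Gadd45a stood at 34.8, 46.8 and 57.8 CPM with TNFa and at 17.7, 21.9, 14.6, 25.1 and 9.64 CPM with PBS (1.38 ± 0.30, adjusted p = 0.00153). In Mo.6C+ it stood at 4.02, 3.43 and 2.86 CPM with TNFa and at 0.609, 0.709, 0.452, 0.545 and 0 CPM with PBS (2.84 ± 0.87, adjusted p = 0.0125). The groups did not overlap in either type, though the Mo.6C+ controls rest on 15 counts. With IL1b Gadd45a fell in MFpc, to 0.341, 1.55 and 0.997 CPM against 2.43, 1.30, 7.59, 3.12 and 3.23 CPM with PBS (-1.85 ± 0.56, adjusted p = 0.0134). The groups overlapped, and without IL1b library 1 the adjusted p was 0.0757. In GN the IL1b values of 36.0, 31.1 and 24.5 CPM lay mostly above the controls (0.78 ± 0.30, adjusted p = 0.0775). IL6 called Gadd45a in 0 of 9 types by edgeR, with 1 at an unadjusted p under 0.05 and 0 called by DESeq2. Gadd45a had no count in any TNFa library of NK, Treg and T.8 (n = 3, 3 and 2), where PBS libraries held 1 to 12, 2 to 7 and 0 to 7 counts. In MC the values were 4.31 and 5.26 CPM with IL1b and 0.961, 6.24 and 3.98 CPM with TNFa, against 0 to 0.433 CPM with PBS, and neither change passed (adjusted p = 0.123 and 0.0869).

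**Figure D4:**
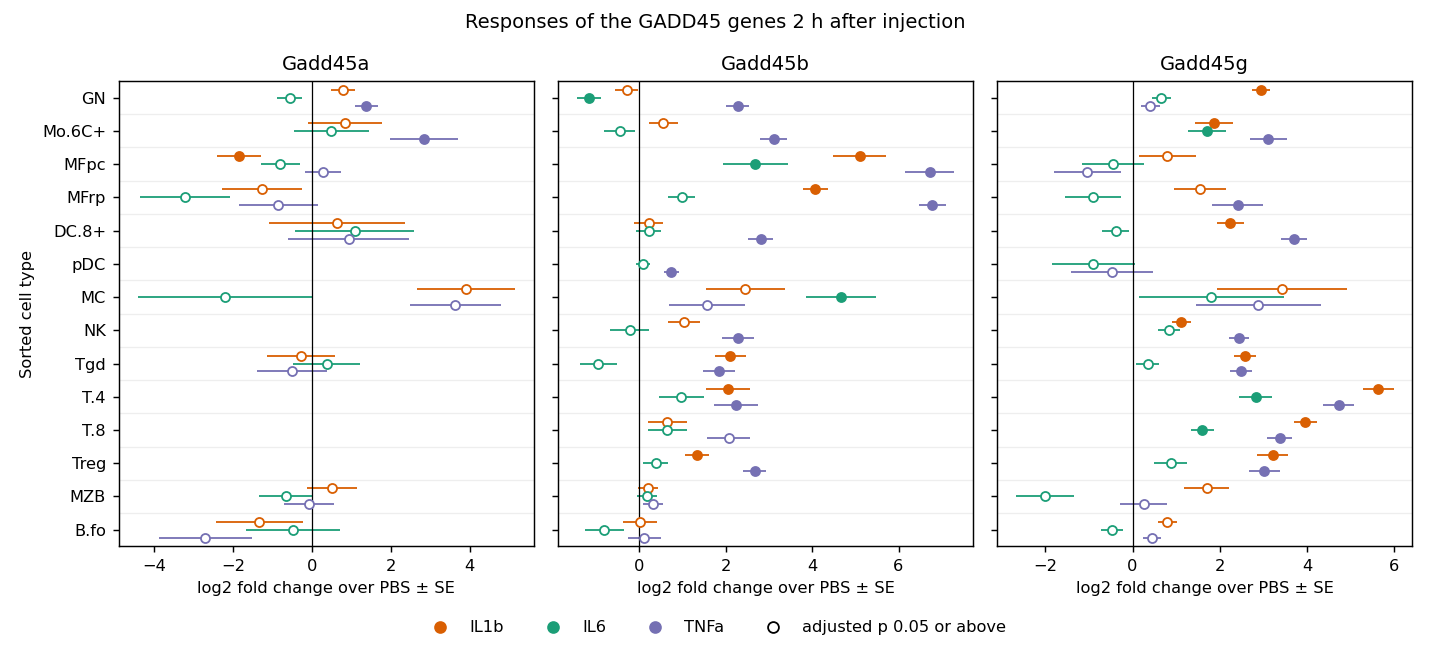
Log2 fold changes over PBS with their SE for Gadd45a, Gadd45b and Gadd45g in each cell type 2 h after IL1b, IL6 or TNFa. Filled points passed an adjusted p of 0.05 and open points did not, and combinations that could not be tested are left out. The largest Gadd45b changes are those of MFrp and MFpc with TNFa (6.78 and 6.72), and the largest Gadd45g change is that of T.4 with IL1b (5.63).

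Whether IL1b and TNFa differed was tested directly between their libraries. Gadd45b was higher with TNFa in 5 of 13 cell types and higher with IL1b in none. The IL1b minus TNFa difference was -2.71 ± 0.31 in MFrp (adjusted p = 0.000293), -2.59 ± 0.38 in DC.8+ (adjusted p = 0.00153), -2.57 ± 0.31 in GN (adjusted p = 1.05e-05), -2.55 ± 0.38 in Mo.6C+ (adjusted p = 0.000264) and -1.62 ± 0.46 in MFpc (adjusted p = 0.0183) on the log2 scale. These are the myeloid types other than MC. In NK, Treg and T.8 the Gadd45b difference was -1.24 ± 0.41, -1.32 ± 0.31 and -1.42 ± 0.52 without passing (adjusted p = 0.156, 0.122 and 0.932). In T.4, MZB, B.fo, Tgd and MC it ran from -0.21 to 0.88, also without passing. For Gadd45g, IL1b was higher in GN (2.54 ± 0.26, adjusted p = 1.37e-06), at 241 to 259 CPM with IL1b against 29.7 to 64.5 CPM with TNFa. TNFa was higher in DC.8+ (-1.45 ± 0.35, adjusted p = 0.0314) and NK (-1.32 ± 0.24, adjusted p = 0.0104). In GN the 2 genes therefore went opposite ways between the cytokines. Gadd45a was higher with TNFa in 1 of 9 types, MFpc (-2.13 ± 0.60, adjusted p = 0.0194). Of all genes tested, IL1b and TNFa differed in 21.6% in GN, 16.2% in MFpc, 13.8% in Mo.6C+, 4.07% in DC.8+, 2.89% in MFrp and 1.46% in NK. In the other types few genes passed: 0.72% in T.4, 0.431% in B.fo, 0.355% in MZB, 0.1% in Treg, 0.0367% in Tgd, 0.0144% in T.8 and 0.0% in MC. The DC.8+ difference of Gadd45g did not pass without TNFa library 1 or 2 (adjusted p = 0.0882 and 0.0635). It was -1.13 without IL1b library 2 and -1.82 without IL1b library 3. Without 5 of the libraries that carried erythroid or NK cell markers it was -1.18. Each of these 3 fits left 1 IL1b library. The NK difference of Gadd45g had an adjusted p of 0.0747 without IL1b library 2 and 0.051 in a fit of the 2 groups alone. That of Gadd45a in MFpc did not pass without IL1b library 1 or 3 or TNFa library 3 (adjusted p = 0.0567 to 0.0757). In MFpc the Gadd45b difference had an adjusted p of 0.0925, 0.0711 and 0.064 without IL1b library 3, TNFa library 1 and TNFa library 3, and DESeq2 gave 0.117.

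In a fit of all 183 screen libraries, the responses of Gadd45b depended on cell type for TNFa (adjusted p = 3.05e-22), IL1b (2.49e-13) and IL6 (1.4e-07). Those of Gadd45g did as well (adjusted p = 4.26e-13, 3.22e-09 and 0.000101 for TNFa, IL1b and IL6). Gadd45a depended on cell type with TNFa (adjusted p = 9.77e-06) and did not pass with IL1b (0.0732) or IL6 (0.534). The same test passed for 36.3% of all genes with TNFa, 22.8% with IL1b and 6.88% with IL6.

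In the time course Gadd45b passed with edgeR at 2 and 4 h after TNFa in both cell types. In Mo.6C+ it stood at 103 and 199 CPM at 2 h, 79.7 and 61.0 CPM at 4 h, 6.17 and 13.9 CPM at 8 h and 7.27 and 17.9 CPM at 24 h after TNFa, against 17.6 and 22.5 CPM with PBS. It was higher than with PBS at 2 h (2.91 ± 0.46, adjusted p = 0.000376) and 4 h (1.81 ± 0.45, adjusted p = 0.00809), and both 8 h libraries lay below both controls without passing (-1.0 ± 0.47, adjusted p = 0.151). In MFpc Gadd45b stood at 57.2 and 60.2 CPM at 2 h, 11.7 and 10.4 CPM at 4 h, 0.551 and 5.33 CPM at 8 h and 0.284 and 0.151 CPM at 24 h after TNFa, against 1.57 and 0.135 CPM with PBS. The rise passed at 2 h (6.10 ± 0.74, adjusted p = 3.92e-05) and 4 h (3.69 ± 0.76, adjusted p = 0.00222). Gadd45g passed at 2 h in Mo.6C+ and at 8 h in MFpc, and its courses in the 2 cell types were not tested against each other. In Mo.6C+ it rose at 2 h, to 16.5 and 9.47 CPM against 3.48 and 1.39 CPM with PBS (2.38 ± 0.60, adjusted p = 0.00776). Its changes in Mo.6C+ at 4, 8 and 24 h were 0.43, 0.26 and 1.37 and did not pass. In MFpc it held 1.12 and 3.53 CPM at 2 h, 1.19 and 1.32 CPM at 4 h, 25.2 and 16.9 CPM at 8 h and 1.70 and 3.18 CPM at 24 h after TNFa, against 1.29 and 0.676 CPM with PBS. The only MFpc time that passed for Gadd45g was 8 h (4.41 ± 0.58, adjusted p = 0.000144), when Gadd45b did not pass with all libraries (1.70 ± 0.87, adjusted p = 0.164). At 8 h Gadd45b in MFpc passed without the filter on low counts (1.73, adjusted p = 0.0178). With 1 TNFa library of 8 h kept, its change was 2.62 without library 1 and -0.58 without library 2. Gadd45a rose in MFpc at 2 h, at 5.44 and 3.75 CPM against 1.14 and 1.35 CPM with PBS (1.87 ± 0.60, adjusted p = 0.0274). Without any 1 of the 4 libraries, which left 1 in a group, the change was 1.58 to 2.12 and did not pass. In the screen the same comparison gave 0.28 ± 0.46 (adjusted p = 0.633). Differences among the 4 TNFa times passed for Gadd45b (adjusted p = 7.04e-05 in Mo.6C+ and 2.67e-05 in MFpc) and Gadd45g (0.0233 and 8.98e-05), and for Gadd45a in Mo.6C+ (0.0174) but not in MFpc (0.215); the same test passed for 45.1% and 44.0% of all genes. Against PBS, the shares of all genes changed in Mo.6C+ were 40.3% at 2 h, 32.5% at 4 h, 22.0% at 8 h and 4.46% at 24 h. In MFpc they were 36.2%, 35.6%, 28.4% and 6.67%. All times were set against PBS at 24 h, so hours after injection and treatment cannot be told apart. Without PBS library 2 the Gadd45g call in Mo.6C+ at 2 h did not pass (1.89). The 4 h Gadd45b call in Mo.6C+ did not pass without PBS library 1 (1.65) or TNFa library 1 of 4 h (1.61). Each of these fits left 1 library in a group.

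**Figure D5:**
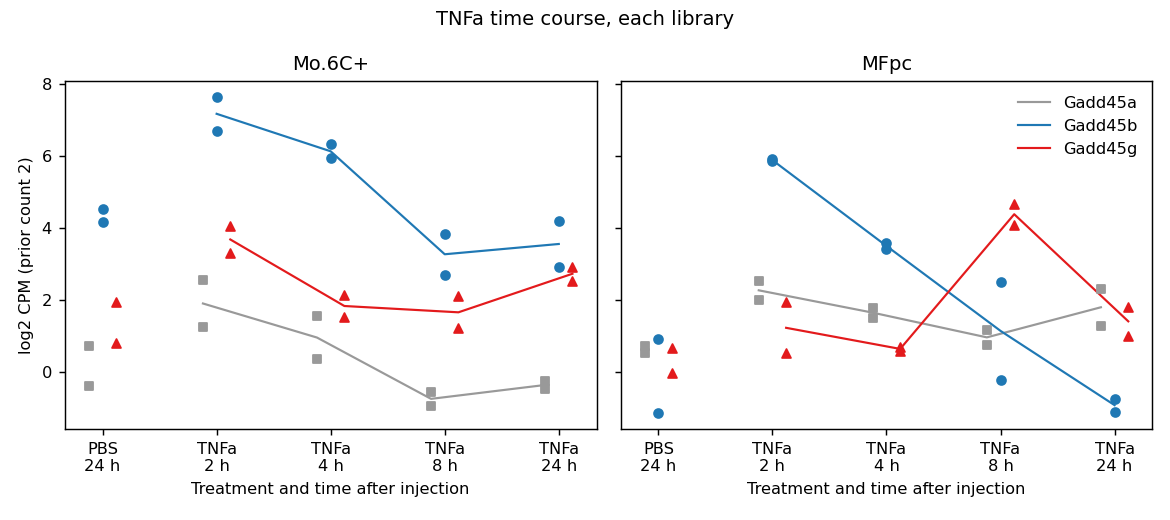
Points are the log2 CPM (prior count 2) of Gadd45a, Gadd45b and Gadd45g in each time-course library of Mo.6C+ and MFpc, with PBS at 24 h at the left and TNFa at 2, 4, 8 and 24 h after it; lines join the means of the TNFa times. Gadd45b is highest at 2 h in both cell types, and Gadd45g in MFpc is highest at 8 h (25.2 and 16.9 CPM).

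LPS at 1 ng raised Gadd45b in Mo.6C+, to 32.6, 69.1 and 115 CPM against 15.4, 10.6 and 29.5 CPM with PBS (1.95 ± 0.50, adjusted p = 0.022). The libraries did not overlap, but without PBS library 1, LPS library 2 or LPS library 3 the adjusted p was 0.0856, 0.065 and 0.0975. Gadd45g stood at 17.2, 19.2 and 12.1 CPM with LPS and 3.40, 8.86 and 1.5 CPM with PBS, also without overlap (1.87 ± 0.61, adjusted p = 0.0575). That test passed with DESeq2 (adjusted p = 0.00776). Gadd45a, with 1, 2 and 8 counts with LPS and 0, 2 and 3 with PBS, was too low to be tested. LPS changed 18.6% of all genes tested.

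Genes that act with or upstream of the family were counted by list over the same cell types. Of the 16 transcription factors known to induce GADD45 genes, 74 tests over the 14 types passed upward and 20 downward with TNFa (46.1% of 204 tests, against 16.2% of all genes), 55 and 9 with IL1b (33.5%, against 10%) and 14 and 7 with IL6 (10.3%, against 2.41%). Relb, a subunit of the non-canonical NF-kB dimer, rose with TNFa in 11 types by 1.92 to 4.87, and Nfkb1, a subunit of canonical NF-kB, in 10 by 0.60 to 2.21. Stat3, which carries IL6 signals, rose in 13 types with TNFa, 12 with IL1b and 8 with IL6. MFrp and MFpc, with the largest Gadd45b changes, had Relb changes of 3.68 and 4.63 with TNFa, and GN had 4.87. Among the 14 p38 and JNK kinases, 34 tests passed upward and 19 downward with TNFa (29.3%), 25 and 14 with IL1b (23.2%) and 6 and 5 with IL6 (6.08%). Mapkapk2, the kinase that p38 activates, rose with TNFa in 11 types, by 3.90 in GN, and Map2k3, which activates p38, in 6. Mapk14, the p38 alpha kinase itself, fell with IL1b in 5 types, by 1.66 on the log2 scale in DC.8+, and with TNFa it fell in 4, by 1.76 in DC.8+, and rose in GN (0.54) and pDC (0.65). Of the cell-cycle and p21 partners, 11 tests passed upward and 16 downward with TNFa (26%, against 16.2% of all genes). The counts were 7 and 8 with IL1b (15.5%, against 10%) and 1 and 1 with IL6 (1.92%, against 2.41%). Cdkn1a, which encodes p21, rose with TNFa in 8 of 12 types, by up to 4.72 in MFrp, while Cdc25b, a phosphatase that drives entry into mitosis, fell in 9 of 14, by up to 2.97 in T.4 on the log2 scale. For DNA repair and demethylation partners the counts were 14 up and 11 down with TNFa (20.3%, against 16.2% of all genes). They were 11 and 8 with IL1b (16.7%, against 10%) and 2 and 2 with IL6 (3.25%, against 2.41%). Tdg, the glycosylase of active demethylation, rose with TNFa in 5 types, and Tet2, a 5-methylcytosine oxidase, rose with IL1b in 5, by 2.64 in GN. Xpc, a damage sensor of nucleotide excision repair, fell with IL1b in MFpc, Mo.6C+ and GN, by 3.22 in GN on the log2 scale, and with TNFa in the same 3 types, by 3.99 in GN. Mbd4, a glycosylase of T:G mismatches, fell with IL1b in MFpc, Mo.6C+ and MZB, by 3.17 in Mo.6C+, and with TNFa in MFpc, Mo.6C+ and pDC, by 3.11 in Mo.6C+. For p53 targets they were 46 up and 19 down with TNFa (29.8%), 30 and 20 with IL1b (24.6%) and 4 and 9 with IL6 (5.96%). With TNFa, the p53 target Cdkn1a, counted in the cell-cycle list too, rose in 8 types and fell in 0, and Ddit4 rose in 7 and fell in 1. Sesn1, a p53-induced stress protein, fell with TNFa in 5 types and rose in MZB and B.fo. The p53 targets thus moved both ways, with more tests passing upward than downward with TNFa.

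Across the 55 groups of the screen, Pearson's r of group mean log2 CPM was 0.41 between Gadd45b and Gadd45g, 0.26 between Gadd45a and Gadd45b and 0.12 between Gadd45a and Gadd45g. The groups share cell types and PBS libraries, so these are descriptions. The genes most like Gadd45b were Psd (0.80), Fbrs (0.77), Hivep1 (0.77), Relb (0.77) and Zfp263 (0.76). Those most like Gadd45g were Arid5a (0.75), Ly75 (0.73), Rasa2 (0.72), Csnk1g1 (0.72) and Akt2 (0.72), and those most like Gadd45a were Samd8 (0.84), Stfa3, Wfdc21 and Chil1 (0.83 each) and Msra (0.83). The changes below share their PBS libraries with the receptor levels they are set against, and are descriptions too. The Gadd45b change with TNFa had r = 0.58 and Spearman's rho = 0.77 with the mean log2 CPM of Tnfrsf1a in PBS libraries over 14 cell types, and the Gadd45g change had r = 0.07 and rho = -0.02. Tnfrsf1a, the main TNF receptor, had 0 counts in each of the 4 MC libraries and averaged 0.0615 ± 0.123 CPM in MZB (SD, n = 4) and 0.258 ± 0.472 CPM in B.fo (n = 5). These are the types in which Gadd45b did not pass with TNFa beside T.8. TNFa still changed 3.99% of all genes tested in MC, 2.74% in MZB and 3.51% in B.fo, and the part of receptor level in these responses was not tested. With Il1r1, the signalling IL1 receptor, the Gadd45b change with IL1b had r = 0.55 and the Gadd45g change r = -0.08 over 13 types. In T.4, where IL1b gave the largest Gadd45g change, Il1r1 averaged 0.0424 ± 0.0948 CPM. With Il6ra, an IL6 receptor gene, the Gadd45b change with IL6 had r = -0.05 and the Gadd45g change r = 0.27 over 14 types.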

How the data were processed

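RNA of sorted cells was sequenced. The authors deposited whole-number counts for each gene symbol; STAR 2.7.3a, featureCounts and the build mm10 are named in the submitters' processing notes. The sources used here give no annotation release or strand setting. Counts were fitted with edgeR 4.0.16 (R 4.3.3; TMM, filterByExpr, quasi-likelihood F test) per cell type with all its groups, and p-values were adjusted by Benjamini-Hochberg over all genes tested (threshold 0.05). Log2 CPM used a prior count of 2, and the SE was taken as |log2 fold change| / sqrt(F). The test of dependence on cell type used 1 fit of all screen libraries, with the dispersion trend estimated from 1 gene in 8. The fit was tested on simulated data. The alternatives were RLE size factors, DESeq2 1.42.0, no filter, only the groups compared, the replicate number as a block, and leaving out libraries. Titles gave group and tissue, since the tissue label of 158 screen libraries reads peritoneal where the title reads spleen. The named genes are the 3 members, at most 3 genes per list and cytokine (those called in the most cell types), the 5 genes closest to each member in pattern, and cytokine receptors. Members and lists were chosen with earlier results of these data known.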

Additional observations from a re-analysis of the deposited data

Results flagged for a closer look

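With PBS, 4 values in 3 libraries stood apart from the others of their group on the log2 CPM scale, among 42 sets of 1 gene in 1 PBS group, where chance gives about 1 in 20. They were PBS library 3 of MFpc for Gadd45b (1.06 CPM) and for Gadd45g (27.3 CPM), PBS library 5 of Mo.6C+ for Gadd45a (0.0 CPM) and PBS library 4 of B.fo for Gadd45b (8.28 CPM).

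The size of the response differed between cell types in a test of the difference itself for Gadd45b with TNFa (adjusted p = 3.05e-22), IL1b (2.49e-13) and IL6 (1.4e-07). It also differed for Gadd45g with TNFa (adjusted p = 4.26e-13), IL1b (3.22e-09) and IL6 (0.000101), and for Gadd45a with TNFa (9.77e-06). The Gadd45a test took in cell types where its counts were too low for a test within the type.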

How the results depend on the processing

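Of 48 calls of the 3 genes against controls, 34 held with each library left out in turn and under the other alternatives run. These were RLE size factors, no filter, DESeq2, the replicate block and fits of the 2 groups alone. In MFrp and DC.8+ they included fits without some of the libraries that carry other cells' markers. With the replicate number as a block, Gadd45b was called in 0 and Gadd45g in 1 of the cell types with IL6, and the LPS change of Gadd45g was 2.11. Calls that did not pass with it were those of Gadd45b with IL6 in GN (-1.05, adjusted p = 0.0871), MC (4.2, 0.118) and MFpc (1.91, 0.125) and with IL1b in T.4 (1.53, 0.0697), and those of Gadd45g with IL6 in Mo.6C+ (1.7, 0.175) and T.8 (1.6, 0.161), with IL1b in NK (1.06, 0.0749) and for IL1b minus TNFa in DC.8+ (-1.37, 0.0783). Values that did not pass changed sign with this block for Gadd45b in B.fo with IL1b (-0.11), Gadd45a and Gadd45g in MC with IL6 (0.73 and -0.35) and Gadd45a in Tgd with IL6 (-0.18). Deviations of libraries sharing a number had a median r of 0.003 over 263 pairs (-0.282 to 0.328). Pairs of unlike number had a median r of -0.002 (-0.363 to 0.363). These medians cannot show whether libraries with the same number shared a batch or a mouse. The cause of these moves was not tested.

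In fits of the 2 groups alone Gadd45b was called in 1 cell type with IL6, GN; in MC and MFpc, where the fit of all groups called it, its counts failed the filter of the smaller fit and it was not tested. Without a filter on low counts Gadd45g was called in 5 types with IL6, 14 contrasts between IL1b and TNFa passed instead of 9, and the LPS change of Gadd45g was 1.89; with DESeq2 it was 1.92. Without the 3 haemoglobin-rich PBS libraries of MFrp, Gadd45a changes turned from -1.27 to 0.83 with IL1b and from -0.85 to 1.26 with TNFa. None of these passed.

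With 1 library left out, the LPS change ran from 1.46 to 2.46 for Gadd45b and from 1.43 to 2.72 for Gadd45g. Time-course ranges that crossed 0 were -2.71 to 0.63 (24 h) and -0.58 to 4.15 (8 h) for Gadd45b in MFpc, -0.03 to 0.86 for Gadd45g in MFpc at 4 h, -0.07 to 1.24 (4 h) and -0.31 to 1.07 (8 h) for Gadd45g in Mo.6C+, and -1.57 to 0.06 for Gadd45a in Mo.6C+ at 24 h. In the screen such ranges for Gadd45b were -0.52 to 0.36 in B.fo, -0.21 to 0.54 in DC.8+, -0.55 to 0.07 in GN and -0.30 to 0.87 in Mo.6C+ with IL1b, -0.34 to 0.09 in NK and -0.05 to 0.20 in pDC with IL6, and -0.09 to 0.37 in B.fo with TNFa. For Gadd45g they were -0.70 to 1.35 with IL6 and -1.30 to 0.76 with TNFa in MFpc, and -0.84 to 0.23 with TNFa in pDC. For Gadd45a they were -0.61 to 0.17 in MZB with TNFa and -1.09 to 0.84 in Tgd with IL6. None of these passed with all libraries by edgeR with the filter; Gadd45b in MFpc at 8 h passed without the filter (1.73, adjusted p = 0.0178). Counts of times or types called ran from 0 to 1 (Gadd45a, times), 0 to 2 (Gadd45a, IL1b), 1 to 2 (Gadd45g, times), and 7 to 10 for the IL1b against TNFa contrasts. In 5 cell types Gadd45a had too few counts to be tested.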
